A study of Mus musculus with 8 samples.

Results

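The genes described here are 10 genes of the osteoclast and of its RANKL-osteoprotegerin control system, out of 22180 genes on the array. They were picked by name, and each was represented by the array feature that the platform annotation links to its symbol alone. All 10 had exactly 1 such feature, so no choice between features was needed. They are the matrix-degrading enzyme genes Acp5, Ctsk and Mmp9, the proton pump gene Atp6v0d2, the fusion genes Ocstamp and Dcstamp, the receptor genes Oscar and Calcr, and the axis genes Tnfrsf11a (RANK) and Tnfrsf11b (osteoprotegerin). Expression was measured in cochleae of mice of postnatal day 16, in 4 miR-183/96 knockout and 4 control animals, the controls being wild type in the series' design text. Each array held RNA of 1 animal, with its left and right cochlea combined inside their bony capsule, so bone, marrow and adhering tissue were part of the sample. The sources used here do not state the allele, the strain or the sex. Nothing says whether the animals were littermates, so p-values measure the spread between these 8 animals.

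Osteoclasts are multinucleated cells that form when precursors of the macrophage lineage fuse, and they dissolve bone by secreting acid and collagen-degrading enzymes into a sealed space. Their formation needs the cytokine RANKL (Tnfsf11), which binds the receptor RANK on the precursors, while osteoprotegerin is a secreted decoy receptor that captures RANKL. The bone of the otic capsule is known for its low remodelling, and the inner ear is a known source of osteoprotegerin.

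The deleted microRNAs are shown first, because they define the knockout. Their mature sequences, from RefSeq on GRCm38.p6, lie on the minus strand of chromosome 6, miR-96-5p at chr6:30169506-30169528 and miR-183-5p at chr6:30169711-30169732. Capitals mark the seed, bases 2 to 8, which differs between them.
miR-96-5p: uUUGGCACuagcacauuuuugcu
miR-183-5p: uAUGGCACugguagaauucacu
No target site was searched in the osteoclast genes.

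Promoters are shown for the gene whose groups separated, Oscar, and for Ctsk and Acp5, which varied together between animals. The RefSeq promoter table of GRCm38.p6 had entries for 5 of the 10 genes (Acp5, Ctsk, Calcr, Oscar and Tnfrsf11a), with 8 start sites. The 250 bases before each start were searched on both strands for core motifs of factors that act in osteoclasts: TGGAAA for NFAT, GAGGAA for PU.1, TGANTCA for AP-1 and CATGTG for MITF. Capitals mark the matches, and those in the windows printed do not overlap.
Oscar, chr7:3616158-3616407, minus strand: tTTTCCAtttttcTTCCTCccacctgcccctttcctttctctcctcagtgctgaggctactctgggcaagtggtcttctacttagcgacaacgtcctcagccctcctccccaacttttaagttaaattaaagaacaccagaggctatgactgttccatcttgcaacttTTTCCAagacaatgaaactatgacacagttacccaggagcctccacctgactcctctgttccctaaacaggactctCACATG
Ctsk, chr3:95498960-95499209, plus strand: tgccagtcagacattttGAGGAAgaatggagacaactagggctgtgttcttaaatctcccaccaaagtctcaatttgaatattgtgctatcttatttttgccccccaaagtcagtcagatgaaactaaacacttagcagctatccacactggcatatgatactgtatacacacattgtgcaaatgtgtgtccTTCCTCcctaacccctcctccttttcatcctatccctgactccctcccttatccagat
Acp5, the start site with matches of its 3, chr9:22130599-22130848, minus strand: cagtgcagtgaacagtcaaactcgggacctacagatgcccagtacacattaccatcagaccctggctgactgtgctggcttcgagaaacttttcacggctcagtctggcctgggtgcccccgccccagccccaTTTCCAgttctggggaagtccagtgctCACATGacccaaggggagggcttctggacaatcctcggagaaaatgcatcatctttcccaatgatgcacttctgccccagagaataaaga
The Oscar window held 4 matches, namely 2 NFAT cores, 1 PU.1 core and 1 MITF motif. Ctsk held 2 PU.1 cores, and this Acp5 window 1 NFAT core and 1 MITF motif. The other windows, 2 of Acp5, 2 of Calcr and 1 of Tnfrsf11a, held none of these letters. Of all 32851 promoter windows of that length, 18.6% held the NFAT core, 23.3% the PU.1 core, 12.3% the MITF motif and 6.75% the AP-1 motif. Such matches describe the letters and do not show binding.

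All values are log2 expression values after RMA (background correction, quantile normalization and probe summary), as the authors deposited them. They carry no detection call and no true zero, so neither absence nor a level relative to another gene can be read from them. The targeted gene gave the check of the labels: Mir96 read 4.01 to 4.31 in knockout and 5.26 to 6.23 in control arrays, and fell by 1.48 (limma adjusted p = 0.00932). That call was lost on leaving out control replicate 1, where the fall was again 1.48 and limma's adjusted p 0.0677. Array pairs correlated at 0.961 to 0.984 over the tested features. The spread of log2 values within an array, its signal range, was 1.37 to 1.44 in knockout and 1.41 to 1.56 in control arrays, and bright features read lower in knockout with it. Of 10 deciles of features ranked by mean value, the highest had a median difference of -0.21 with 87.7% negative. In the lowest decile the median was 0.13. The cochlear markers Coch (9.99 to 10.75 over the 8 arrays) and Otos (10.12 to 10.70) and the bone marker Ibsp (10.33 to 11.04) were all in the highest decile.

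None of the 10 genes passed an adjusted p of 0.05 in knockout cochlea, where 0.0128% of the 23521 features tested passed. The adjusted p ran from 0.301 for Oscar to 0.997 for Ocstamp. Oscar differed by -0.34 with no overlap between the groups, and Atp6v0d2 differed by -0.34 with overlap. The remaining differences lay between -0.19 (Ctsk and Acp5) and 0.16 (Calcr). As deposited, 8 of the 10 differences were negative, and 5 of 10 were after cyclic loess normalization or a repeated quantile normalization. With signal range as a covariate 1 was negative, Oscar. Over all features 47.6% were negative. At an unadjusted p under 0.05, 1 gene was lower (Oscar) and 0 were higher, beside 7.25% of all features lower and 7.04% higher. All knockout arrays lay below all control arrays at 1 of the 10, again Oscar, beside 2.65% of all features. All knockout arrays lay above at 0 of the 10, beside 3.30%. With 10 genes, 1 is the smallest count above 0, and it is no result about the set. In bulk tissue, fewer osteoclasts and less RNA per osteoclast cannot be told apart.

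**Figure D1:**
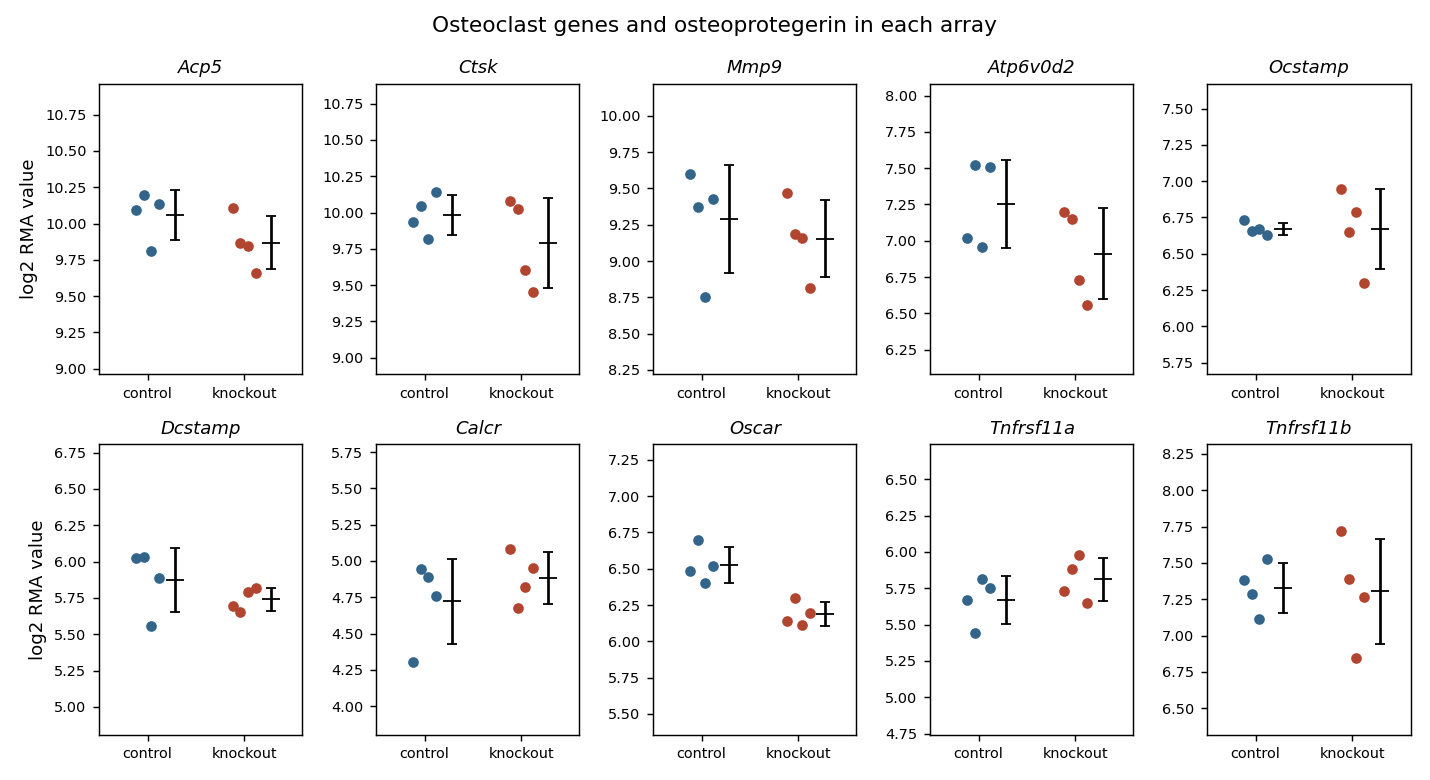
Log2 RMA value (vertical axis, spanning 2 log2 units in every panel) of each gene in the 4 control (blue) and 4 knockout (red) arrays, a point per animal. The bar beside the points gives the mean ± SD; only for Oscar do the groups lie apart, with knockout values of 6.11 to 6.30 and control values of 6.40 to 6.70.

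The control system of the osteoclast was examined through its receptor, decoy receptor and ligand. Tnfrsf11a encodes RANK, the receptor through which RANKL drives precursors to become osteoclasts. Its feature 17216339 read 5.73, 5.89, 5.98 and 5.65 in knockout replicates 1 to 4 and 5.67, 5.44, 5.82 and 5.75 in control replicates 1 to 4. The groups overlapped, with the lowest value in a control animal and the highest in a knockout. The means were 5.81 ± 0.15 and 5.67 ± 0.16 (SD, n = 4), a difference of 0.14 (SE 0.12, limma adjusted p = 0.581). The 95% interval of the difference ran from -0.12 to 0.40. Without control replicate 2 it was 0.064, and without knockout replicate 3 it was 0.085.

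Tnfrsf11b encodes osteoprotegerin, which binds RANKL and keeps it from RANK. Its feature 17317046 read 7.72, 7.39, 6.84 and 7.27 in knockout and 7.38, 7.29, 7.11 and 7.53 in control replicates 1 to 4. The knockout animals enclosed the whole control range, with knockout replicate 1 above and knockout replicate 3 below every control. Their means were 7.30 ± 0.36 in knockout and 7.33 ± 0.17 in control cochlea (SD, n = 4), a difference of -0.023 (SE 0.16, adjusted p = 0.953 in limma). The interval of -0.37 to 0.32 leaves changes of that size in either direction undetected. The sign turned after cyclic loess (0.18), and without knockout replicate 3 the difference was 0.13.

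Tnfsf11, the gene of RANKL itself, read 4.97, 5.59, 5.14 and 5.16 in knockout and 5.33, 5.42, 5.26 and 5.32 in control replicates 1 to 4. The control animals lay close together, and the knockout animals both below and above them. The difference was -0.12 (SE 0.13, limma adjusted p = 0.682). The mean of 5.28 lay below the median of every array (5.40 to 5.50). Without a detection call, Tnfsf11 cannot be separated from background, which also limits the comparison with Tnfrsf11b. Within an array, the Tnfsf11 value minus the Tnfrsf11b value was -2.75, -1.80, -1.70 and -2.10 in knockout and -2.06, -1.86, -1.85 and -2.20 in control animals. Only its change between groups can be read, since the features differ in probe response. That change was -0.094, from -1.99 ± 0.17 in control to -2.09 ± 0.47 in knockout (SD, n = 4; two-sided exact permutation p = 0.857, smallest possible 0.0286). Without knockout replicate 1 it was 0.13 (exact permutation p = 0.371), and after cyclic loess it was -0.36 (exact permutation p = 0.257).

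Csf1 and Csf1r, the cytokine M-CSF and its receptor that keep osteoclast precursors alive, had differences of -0.19 and -0.20 (limma adjusted p = 0.496 and 0.493). Csf1 ranged from 5.99 to 6.28 in knockout and from 6.05 to 6.65 in control cochlea. Csf1r ranged from 6.77 to 7.05 and from 6.70 to 7.37. Both overlapped between groups.

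Oscar was the only one of the 10 genes whose groups did not overlap. It encodes the osteoclast-associated immunoglobulin-like receptor, a collagen-binding receptor that signals through the Fc receptor gamma chain (Fcer1g). Its feature 17485520 read 6.14, 6.30, 6.11 and 6.19 in knockout and 6.49, 6.70, 6.40 and 6.52 in control replicates 1 to 4. Every knockout animal was below every control animal, the highest knockout at 6.30 and the lowest control at 6.40. The means were 6.19 ± 0.08 and 6.53 ± 0.12 (SD, n = 4), which is 1.26-fold lower in knockout. The difference of -0.34 (SE 0.11, 95% interval -0.57 to -0.11) had an unadjusted p of 0.00673 and did not pass over all features (limma adjusted p = 0.301). Features of the same decile by mean value had a median of -0.091 with 69.1% negative. After cyclic loess Oscar differed by -0.23 (adjusted p = 0.459) and its groups still did not overlap. Adjusted for signal range it differed by -0.21 (adjusted p = 0.909).

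Macrophages and dendritic cells can also express Oscar, so the macrophage markers were set beside it. All 12 were measured, with 0 passing, a median difference of -0.092 (0.082 after cyclic loess) and 7 negative. The deciles these markers belong to had a median of -0.16. Their mean log2 level was 6.53 to 6.64 in knockout and 6.50 to 6.67 in control arrays, overlapping. The fractalkine receptor gene Cx3cr1 lay the other way from Oscar, at 7.52 to 7.83 in knockout and 7.22 to 7.50 in control arrays with no overlap (0.34, limma adjusted p = 0.301). Csf1r (-0.20), Cd68 (-0.22) and Cd163 (0.22, with a low mean log2 value of 4.83) overlapped between groups. The partner chain Fcer1g differed by -0.12 (adjusted p = 0.714). The part of macrophages in the Oscar difference was not tested.

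Calcr encodes the calcitonin receptor, through which calcitonin stops resorption. Its feature 17464549 read 5.09, 4.67, 4.82 and 4.95 in knockout and 4.30, 4.95, 4.89 and 4.76 in control replicates 1 to 4. Control replicate 1 was the low array, and the other 7 lay between 4.67 and 5.09. The difference was 0.16 (SE 0.15, limma adjusted p = 0.616), beside a median of 0.11 for features of its decile. Without control replicate 1 it was 0.020, without knockout replicate 1 it was 0.093, and cyclic loess gave 0.056. Calcr was also the only one of the 10 with a mean below 5, and left the analysis of features with a mean of at least 5.

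Cell fusion was represented by a pair of multi-pass membrane protein genes, Dcstamp and Ocstamp, both needed for osteoclast precursors to become multinucleated. Dcstamp (feature 17311251) read 5.69, 5.65, 5.79 and 5.82 in knockout and 6.02, 6.03, 5.56 and 5.89 in control replicates 1 to 4. Control replicate 3 was the lowest of all 8 arrays, and the other 3 controls lay above all knockouts. The difference was -0.13 (SE 0.12, limma adjusted p = 0.601), and it became -0.24 on leaving out control replicate 3 (adjusted p = 0.207). Leaving out control replicate 1 gave -0.085, and control replicate 2 gave -0.083. Ocstamp (feature 17394454) read 6.95, 6.65, 6.79 and 6.30 in knockout and 6.73, 6.66, 6.67 and 6.63 in control replicates 1 to 4. The control animals lay close together and the knockout animals spread on both sides of them. The means were 6.67 ± 0.27 and 6.67 ± 0.043 (SD, n = 4), and the difference was -0.0016 (SE 0.13, adjusted p = 0.997 in limma). Its interval ran from -0.28 to 0.28.

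Atp6v0d2 encodes the d2 subunit of the vacuolar proton pump, which acidifies the resorption space and also takes part in precursor fusion. Its feature 17423577 read 7.20, 7.15, 6.73 and 6.56 in knockout and 7.02, 7.52, 6.96 and 7.51 in control replicates 1 to 4. Control replicates 2 and 4 were the highest and knockout replicates 3 and 4 the lowest, while the other 4 arrays lay between 6.96 and 7.20. The means were 6.91 ± 0.31 and 7.25 ± 0.31 (SD, n = 4), 1.27-fold lower in knockout. That difference, -0.34 (SE 0.17, 95% interval -0.71 to 0.028), did not pass (limma adjusted p = 0.376). Its difference was -0.15 after cyclic loess, 0.12 with adjustment for signal range and -0.22 without knockout replicate 4.

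Among the enzymes of matrix digestion, Acp5 encodes tartrate-resistant acid phosphatase, the classical histochemical marker of osteoclasts. Its feature 17524930 read 10.11, 9.87, 9.84 and 9.66 in knockout and 10.09, 10.20, 9.81 and 10.13 in control replicates 1 to 4. The groups overlapped through knockout replicate 1, which was as high as the controls, and control replicate 3, which was low. The difference was -0.19 (SE 0.12, limma adjusted p = 0.469), beside a median of -0.21 for features of its decile. It was -0.12 without knockout replicate 4 and -0.068 after cyclic loess.

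Ctsk encodes cathepsin K, the cysteine protease that cleaves bone collagen. Its feature 17400365 read 10.08, 10.03, 9.60 and 9.45 in knockout and 9.93, 10.04, 9.82 and 10.14 in control replicates 1 to 4. Knockout replicates 3 and 4 were below all other arrays, and knockout replicates 1 and 2 lay among the controls. Its difference was -0.19 (SE 0.15, limma adjusted p = 0.526). It became -0.081 without knockout replicate 4, -0.29 without knockout replicate 1 and -0.068 after cyclic loess.

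Mmp9 encodes the gelatinase MMP-9, made by osteoclasts and stored in neutrophil granules. Its feature 17379606 read 9.47, 9.18, 9.16 and 8.81 in knockout and 9.60, 9.37, 8.75 and 9.43 in control replicates 1 to 4. The lowest array of all was control replicate 3, next to knockout replicate 4, and the groups overlapped. The difference was -0.13 (SE 0.18, limma adjusted p = 0.726), -0.31 without control replicate 3 (adjusted p = 0.208) and 0.033 after cyclic loess. It was -0.24 without knockout replicate 1, -0.018 without knockout replicate 4, -0.029 without control replicate 1 and -0.086 without control replicate 4. All 12 neutrophil markers were measured and 0 passed, with a median of 0.046 as deposited, 0.19 after cyclic loess and -0.049 without control replicate 3. Their mean level was 8.62 to 8.88 in knockout and 8.41 to 9.04 in control arrays, and control replicate 3, lowest for Mmp9, was also lowest for them. The neutrophil markers differed in sign, 5 being negative and 7 positive. Of those named for their p, Prtn3 was negative (-0.39), while Retnlg (0.22), S100a8 (0.27) and S100a9 (0.35) were positive. The part of neutrophils in the Mmp9 values was not tested.

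**Figure D2:**
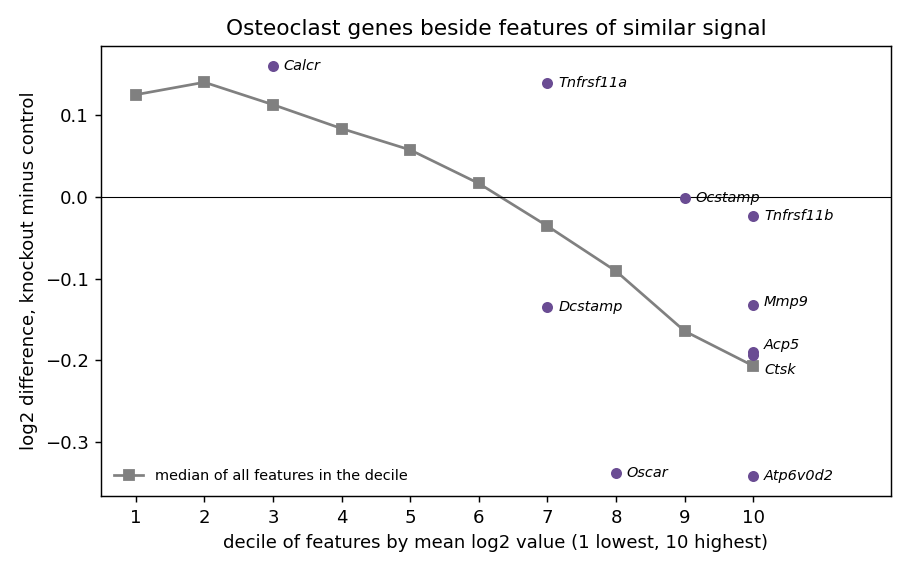
Log2 difference, knockout minus control (vertical axis), of the 10 genes (purple) against the decile of all features to which their mean log2 value belongs (horizontal axis, 1 lowest to 10 highest). The grey line gives the median of all features in each decile, 0.13 at the bottom and -0.21 at the top; Oscar, Atp6v0d2 and Dcstamp lie below it and the other 7 genes above.

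Set beside features of similar signal, 3 of the 10 genes, Oscar, Atp6v0d2 and Dcstamp, had a difference below the median of their decile, and 7 had one above it. The median over the 9 osteoclast genes, without Tnfrsf11b, was -0.13, beside 0.014 over all features tested. Cyclic loess moved it to -0.068, and adjustment for signal range to 0.075. Leaving out control replicate 3 moved it to -0.25, leaving out knockout replicate 1 to -0.24, and leaving out knockout replicate 4 to -0.081. Leaving out control replicate 1 gave -0.085. Without control replicate 3, 5 of the 10 genes were lower at an unadjusted p under 0.05 (Oscar, Atp6v0d2, Acp5, Mmp9 and Dcstamp), beside 12.6% of all features under the same omission, and still 0 passed after adjustment. Atp6v0d2, Acp5 and Mmp9 were in decile 10, where 27.1% of features were lower at that p with all arrays. The share was 10.6% in decile 8, that of Oscar, and 6.34% in decile 7, that of Dcstamp. Shares by decile under the omission were not taken, so the count is no result about the set.

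**Figure D3:**
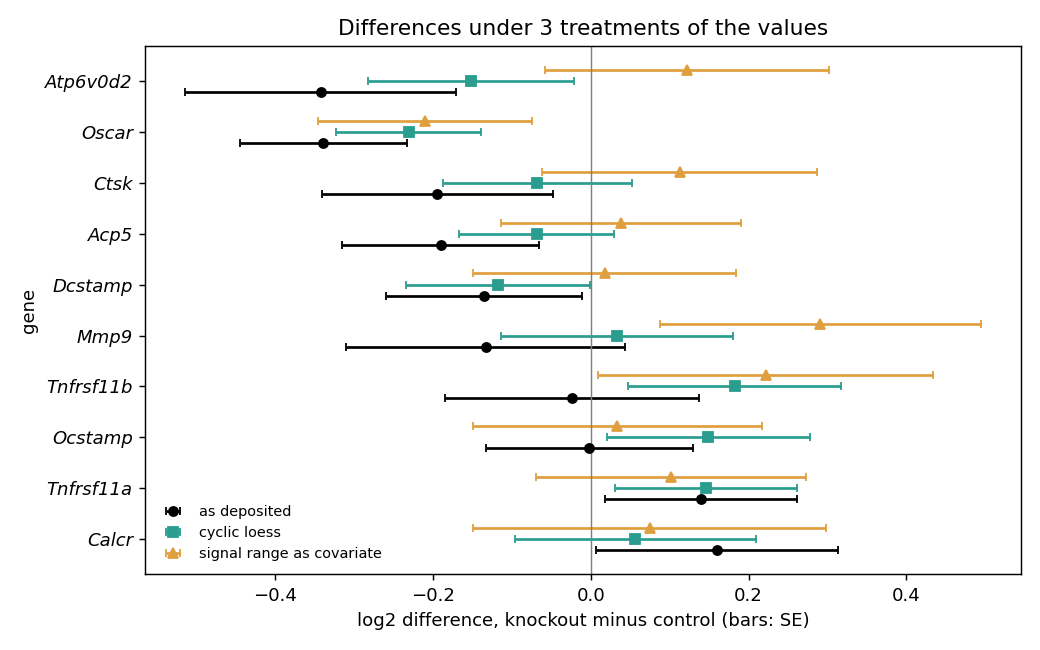
Log2 difference, knockout minus control, with its SE (horizontal axis), for each gene under the deposited values (black), cyclic loess normalization (green) and signal range as a covariate (orange). Oscar is the gene that stays negative in all 3, at -0.34, -0.23 and -0.21, while Atp6v0d2 goes from -0.34 to -0.15 and 0.12.

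Animals of 1 genotype differed from each other across these genes. Knockout replicate 4 held the lowest knockout value for 6 of the 9 osteoclast genes, and knockout replicate 1 the highest for 6. Among controls, replicate 3 held the lowest value for 6 of the 9 and replicate 2 the highest for 5. Their mean log2 level per animal was 7.38, 7.27, 7.20 and 7.04 in knockout and 7.32, 7.43, 7.19 and 7.42 in control replicates 1 to 4. Knockout replicates 1, 2 and 3 were thus within the control range, and knockout replicate 4 was below it. Control replicates 1 and 3 were within the knockout range, and control replicates 2 and 4 above it.

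**Figure D4:**
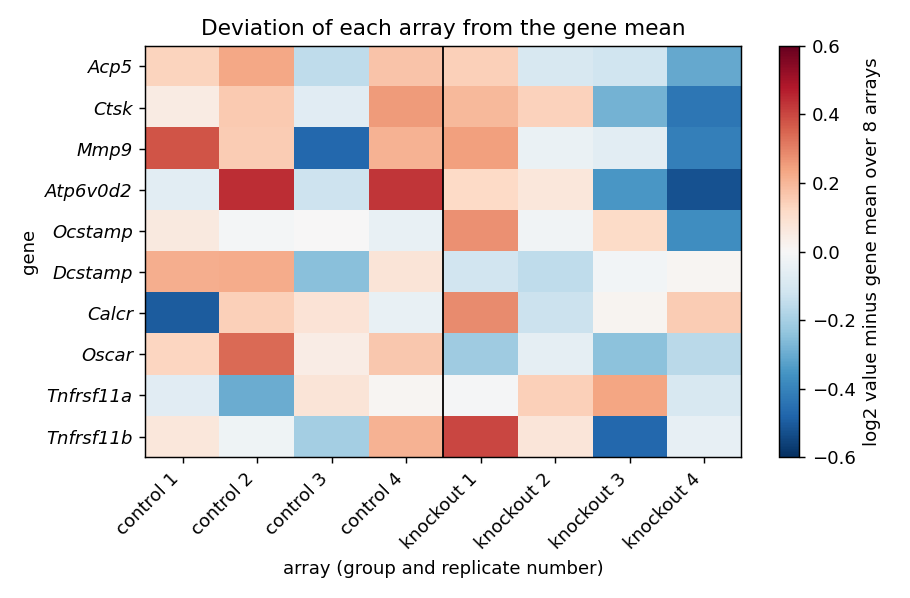
Log2 value of each array (columns, 4 control then 4 knockout) minus the mean of the gene over the 8 arrays, for the 10 genes (rows); red is higher and blue lower. Knockout replicate 4 is blue for Acp5, Ctsk, Mmp9, Atp6v0d2 and Ocstamp, and control replicate 3 is blue for Mmp9, Dcstamp and Acp5.

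Pairs of these genes shared this animal-to-animal variation unequally. After removing the group means, Pearson's r over the 8 arrays had a median of 0.27 over the 36 pairs of the 9 genes, and 23 pairs were positive. The 4 pairs above 0.7 were Ctsk with Atp6v0d2 (0.91), Acp5 with Mmp9 (0.91), Acp5 with Atp6v0d2 (0.81) and Acp5 with Ctsk (0.79). At the other end, Oscar with Tnfrsf11a read -0.60 and Dcstamp with Tnfrsf11a -0.57. These values describe 8 arrays that also share signal range and tissue content, and they carry no test. Among 14516 other genes with a mean of at least 5, Sort1 (0.98), Ccdc125 (0.98), Parvg (0.97), Gdi2 (0.97) and Ostc (0.96) had the highest r with the mean of the 9 genes. For Tnfrsf11b they were Aldh1a1 (0.98), Triap1 (0.96), Map2k6 (0.93), Atg16l1 (0.91) and Gm12739 (0.91). Being the highest of so many, such r values are large by selection.

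Other genes of the osteoclast pathway were taken from 5 lists, with 76 of 83 symbols measured beside the 10 genes above. In knockout cochlea 0 of the 76 passed, 54 were negative as deposited and the median difference was -0.12. At an unadjusted p under 0.05, 14 were lower and 2 higher, and the groups did not overlap at 3, of which 2 were lower in knockout (Atp6v1a and Gab2) and 1 higher (Cx3cr1). Over all features 47.6% were negative, and the shares were 7.25% and 7.04% at that p, and 2.65% and 3.30% without overlap. Of the 76 genes, 45 lay in deciles 9 and 10 by mean value. In these deciles 82.4% and 87.7% of features were negative, and 17.9% and 27.1% were lower at that p. Cytokine and receptor genes around RANKL numbered 9, with a median of -0.10 beside -0.036 for the deciles these genes belong to. The smallest p was that of Lgr4, a further RANKL receptor (-0.26, limma adjusted p = 0.441).

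The 25 signalling and transcription factor genes had a median of -0.10 as deposited, beside -0.16 for the deciles these genes belong to. After cyclic loess their median was 0.061. Nfatc1, the master transcription factor of osteoclast formation, read 6.32 to 6.58 in knockout and 6.47 to 6.83 in control arrays (-0.26, limma adjusted p = 0.329), and -0.12 after cyclic loess. The adaptor gene Gab2, which links RANK to its downstream kinases, read 5.78 to 6.11 and 6.15 to 6.60 (-0.32, adjusted p = 0.308). The kinase gene Syk was at -0.30 and the phospholipase gene Plcg2 at -0.23, both of the pathway that Oscar feeds, with overlapping groups. Features of their deciles had medians of -0.21 and -0.16. Both were named for their p among the 25 genes, of which 16 were negative and 9 positive. They are no result about that pathway. Of 9 genes that restrain osteoclast formation, the transcription factor gene Irf8 was at -0.25 (adjusted p = 0.333). Its second feature, dimmer with a mean log2 value of 5.06 beside 6.46, was at 0.31. Id2 was at -0.25, Lilrb4a at 0.15 and Twist2, with a low mean log2 value of 4.08, at 0.18. The median of the 9 was 0.019, beside -0.16 for the deciles they belong to.

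In the fusion and precursor list of 11 genes the median was -0.13, beside -0.21 for the deciles these genes belong to. After cyclic loess the median of the list was 0.0020. Itgb3, the beta 3 integrin chain that seals the osteoclast to bone, read 7.35 to 7.71 in knockout and 7.70 to 8.005 in control arrays (-0.28, limma adjusted p = 0.311), and -0.060 after cyclic loess. Its partner Itgav was at -0.24, with a second, dimmer feature at 0.22 (mean log2 value 4.29 beside 7.68). The protease gene Adam8 was at 0.22. Cx3cr1, whose values are given with the macrophage markers, is in this list too.

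None of the 22 acid secretion and resorption genes passed. Of these 21 were negative, 10 were lower and 1 higher at an unadjusted p under 0.05, and the median was -0.24 beside -0.21 for the deciles these genes belong to. It was -0.074 after cyclic loess, -0.092 after a repeated quantile normalization and -0.030 with adjustment for signal range. In decile 10, which held 12 of the 22, 87.7% of features were negative and 27.1% lower at that p. The list holds 9 vacuolar proton pump genes. Tcirg1, the osteoclast pump subunit gene, is among them, and the others are widely expressed outside osteoclasts. All 9 were negative, with a median of -0.28, and 7 were lower at an unadjusted p under 0.05, with 7 of the 9 genes in decile 10. Atp6v1g1, 1 of the 9, was at -0.23 with a mean log2 value of 7.60. Its further features, at 0.41 and 0.29, were dimmer, with means of 4.88 and 5.32. In deciles 4 and 5, features had medians of 0.084 and 0.058. With all features of a gene averaged, 8 of the 9 were negative and 7 lower at that p. After cyclic loess all 9 were negative with a median of -0.093 and 1 was lower at that p. With signal range in the model 5 of 9 were negative. Leaving out knockout replicate 3 left 1 lower at an unadjusted p under 0.05, and leaving out knockout replicate 4, control replicate 2 or control replicate 4 left 3. Leaving out control replicate 1 left 4. Atp6v1b2 read 6.82 to 7.51 in knockout and 7.49 to 7.85 in control arrays (-0.56, limma adjusted p = 0.291), but its second feature was at -0.023. Atp6v1a, with no overlap, read 6.60 to 7.03 and 7.04 to 7.32 (-0.34, adjusted p = 0.305). The cysteine protease gene Ctsb was at -0.30. Mmp12, a macrophage metalloprotease gene with a low mean log2 value of 4.55, was at 0.34, beside a median of 0.11 for its decile. Of the pump genes, Tcirg1 was at -0.11. The chloride transporter gene Clcn7 was at -0.27 and the carbonic anhydrase gene Car2 at -0.16.

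**Figure D5:**
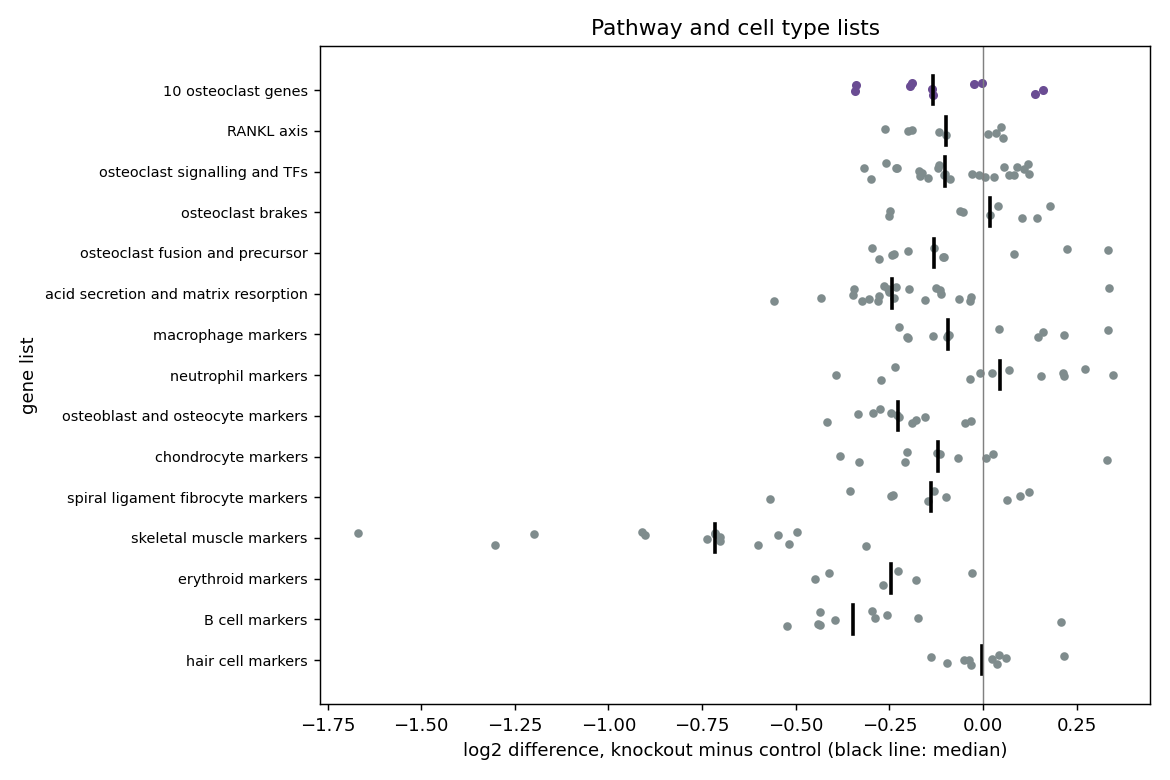
Log2 difference, knockout minus control (horizontal axis), of each measured gene (grey points) in the pathway and cell type lists (rows), with the 10 genes in purple on top; the black line is the median of each row. Most lists lie left of 0, with medians of -0.24 for acid secretion (-0.074 after cyclic loess), -0.23 for osteoblasts and -0.72 for skeletal muscle, and the hair cell median is -0.0036.

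Markers of other cells in the encapsulated cochlea were set beside these values. For osteoblasts and osteocytes, the bone cells that make RANKL, all 12 measured of 15 markers were negative with a median of -0.23 (-0.066 after cyclic loess), and 0 passed. The deciles these markers belong to had a median of -0.21, and in decile 10, 87.7% of features were negative. Their mean level was 8.61 to 9.14 in knockout and 8.82 to 9.29 in control arrays, overlapping. The type I collagen gene Col1a1 read 11.304 to 11.60 and 11.61 to 12.06 without overlap (-0.42, limma adjusted p = 0.301). Col1a2 read 10.17 to 10.50 and 10.53 to 10.83, also without overlap (-0.33), with a second feature at -0.051. All knockout arrays thus lay below all control arrays at 2 of the 12, beside 2.65% of all features and 7.06% of decile 10. Chondrocyte markers, 10 of 10 measured, had a median of -0.12 (-0.0041 after cyclic loess) and levels of 6.24 to 6.53 and 6.27 to 6.64. Matn1 was at 0.33 with a low mean log2 value of 4.47, and Acan at -0.33 with a mean of 6.08. Features of the decile of Matn1 had a median of 0.11. Spiral ligament fibrocyte markers, 10 of 10, had a median of -0.14 (-0.019 after cyclic loess) and levels of 8.09 to 8.48 and 8.32 to 8.48, with Slc4a11 at -0.57 and Coch at -0.35.

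As deposited, the B cell, erythroid and muscle lists had negative medians, beside -0.21, -0.21 and -0.16 for the deciles their genes belong to. The B cell markers, 10 measured of 12, had a median of -0.35 (-0.16 after cyclic loess, -0.11 adjusted for signal range) and levels of 6.95 to 7.31 in knockout and 7.29 to 7.60 in control arrays, with Cd79b at -0.44, Pax5 at -0.52 and Cd79a at -0.39. At an unadjusted p under 0.05, 7 of the 10 were lower and 0 higher, beside 7.25% and 7.04% of all features. In decile 10, 27.1% of features were lower at that p. Without overlap, 2 were lower in knockout (Cd79b and Igll1) and 1 higher (Vpreb1), beside 2.65% and 3.30% of all features. Vpreb1 had a low mean log2 value of 4.92, in a decile with a median of 0.084. Erythroid markers, 6 measured of 10, had a median of -0.25 (-0.050 after cyclic loess and 0.29 adjusted for signal range) and levels of 7.38 to 7.95 and 7.49 to 8.36. Skeletal muscle markers, all 15 measured and negative, had a median of -0.72 and levels of 5.604 to 6.79 and 6.50 to 8.54, highest in control replicate 2. Without control replicate 2 the muscle median was -0.26, and without knockout replicate 1 it was -0.48. Hair cell markers, 10 of 10, had a median of -0.0036 and levels of 5.41 to 5.54 and 5.34 to 5.52. None of these genes passed, and their part in the values of the osteoclast genes was not tested.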

How the data were processed

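Total RNA of 8 cochlea samples was measured on Affymetrix arrays. The values the authors deposited are log2 expression after gene-level RMA; Expression Console is named in the submitters' processing notes. Its version and the genome build were not given in the sources used here. Altogether the table held 41345 features, of which 23521 had exactly 1 gene symbol, 1814 several and 16010 none.

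Knockout was compared with control over the 23521 features in limma 3.58.1 (R 4.3.3; lmFit, eBayes with trend), with Benjamini-Hochberg adjustment over all of them and a threshold of 0.05. A gene with several features was represented by the one with the highest mean. The ligand-decoy difference used a two-sided exact permutation test over 70 assignments. The 10 genes and the 14 lists were chosen with earlier results of these data known. Named genes were the 10, Tnfsf11, Csf1, Csf1r, Mir96, up to 4 of each list with the smallest p, and the genes most like them. Fcer1g, Tcirg1, Clcn7 and Car2 were added for their role after their values were seen. Also added after their values were seen were Vpreb1, for its groups without overlap, and Atp6v1g1, for its further features. Tested on simulated data of 23521 features in the knockout against control design, the fit called 56% of 50 features changed by 0.6 and 4% of 50 changed by 0.3. It also called 8 unchanged features. The simulated noise was independent between features, without the shared signal range of the real arrays, so these rates may not carry over to them. The number of arrays limits the precision.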

Additional observations from a re-analysis of the deposited data

Results flagged for a closer look

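In groups of 4, a sample whose gap to the nearest other passed Dixon's 95% critical value was looked for in 162 groups of values, and 7 were found; chance gives about 1 in 20. None concerned the 10 osteoclast genes. Mir96 read 4.01 in knockout replicate 1, beside 4.26 to 4.31 in the other knockout animals. Gab2 read 5.78 in knockout replicate 2, beside 6.06 to 6.11. Retnlg read 9.37 in knockout replicate 1, beside 9.63 to 9.67. In control replicate 3, Id2 read 8.15 beside 8.39 to 8.44, and Irf8 6.45 beside 6.62 to 6.64. Otos read 10.58 in control replicate 4, beside 10.69 to 10.70. The hair cell marker level was 5.34 in control replicate 2, beside 5.50 to 5.52.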

How the results depend on the processing

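The count of 0 genes past the threshold among the 10, and of 0 among the pathway and cell type lists, was the same in all 19 alternatives in limma. With the replicate number as a block it was 0 too, Oscar differed by -0.34 (adjusted p = 0.264), and the Tnfsf11 minus Tnfrsf11b change was -0.094 (exact permutation p = 1). Same-numbered arrays deviated together at r of 0.057, 0.21, 0.21 and -0.29, and 1 of 4 knockout arrays correlated best with its own number, so the numbers were not taken as pairs. The median of the 9 osteoclast genes was 0.075 with signal range as a covariate, and -0.25 to -0.081 with 1 array left out. The Mir96 call was lost over all features of the table (-1.48, adjusted p = 0.184) and on leaving out control replicate 1 (-1.48, limma's adjusted p 0.0677); with 1 array left out Mir96 ran from -1.62 to -1.30. The change of Tnfsf11 minus Tnfrsf11b ran from -0.22 to 0.13 with 1 array left out, positive without knockout replicate 1; it was -0.36 after cyclic loess and -0.33 after quantile normalization. Signs turned, none past the threshold, after quantile normalization in Mmp9 (0.011), Ocstamp (0.13) and Tnfrsf11b (0.16), after cyclic loess in Mmp9 (0.033), Ocstamp (0.15) and Tnfrsf11b (0.18), and with array weights in Ocstamp (0.0033). With signal range as a covariate they turned in Acp5 (0.038), Ctsk (0.11), Mmp9 (0.29), Atp6v0d2 (0.12), Ocstamp (0.034), Dcstamp (0.018), Tnfrsf11b (0.22), Tnfsf11 (0.049) and Csf1r (0.22). With 1 array left out Ocstamp ran from -0.093 to 0.12 and Tnfrsf11b from -0.16 to 0.13. The cause was not tested. Features past the threshold numbered 1 to 8 in the alternatives with all arrays and 1 to 21 with 1 left out. Oscar stayed negative in all 19 and kept an unadjusted p under 0.05 in all but the signal range covariate; its adjusted p in limma ran from 0.102 to 0.909. No detection call was used, so dim features such as Calcr, Tnfsf11, Matn1, Mmp12, Twist2, Vpreb1 and Cd163 could not be separated from background.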
